A study of Mus musculus with 36 samples.

Results

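The mRNAs of 10 proteins that carry, take up or release fatty acids were followed in mouse liver from late gestation to adulthood. The members were named by gene symbol: the fatty acid binding proteins Fabp1, Fabp2, Fabp4, Fabp5 and Fabp7, the membrane proteins Cd36, Slc27a2 and Slc27a4, and the lipases Lpl and Lipc. All 10 were among the 21889 gene symbols listed. The tissue was whole liver of untreated C57BL/6 mice, all male, from several litters, with 3 mice at each of 12 ages and 36 mice in all. The fetal age, labelled as 2 days before birth, is called GD17.5 (gestational day). Day 0 mice were newborn and had not yet suckled, Days 1, 3 and 5 fell in early suckling and Days 10, 15 and 20 in later suckling, and mice of Days 25 and 30 and of Days 45 and 60 had been weaned onto standard chow. Expression was measured by sequencing of polyadenylated RNA and is given in FPKM, read fragments scaled both to transcript length and to the size of the library, so that levels of different genes are compared per length.

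Long-chain fatty acids reach the hepatocyte bound to albumin or inside lipoproteins. Lipases release them from triglyceride at the vessel wall, membrane transporters and acyl-CoA synthetases bring them in and trap them as CoA esters, and small cytosolic binding proteins carry them to oxidation, esterification or nuclear receptors. The diet changes at birth from placental glucose to fat-rich milk and at weaning to carbohydrate-rich chow, and adult liver is known for abundant Fabp1 and hepatic lipase and for very little lipoprotein lipase.

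The liver label was checked against 7 hepatocyte markers (Alb, Ttr, Apoa1, Apob, Apoh, Ahsg and Fgb). Their summed level ran from 11229.9 FPKM in a GD17.5 mouse to 121791 FPKM in a Day 15 mouse, with a median of 72509.8 FPKM, and Alb had the highest average over all mice, although the highest single value was that of Ahsg, 50079.6 FPKM in a Day 10 mouse. Several libraries also held RNA of neighbouring tissues. The summed level of 6 pancreatic acinar markers was 17039.8 FPKM in Day 60 replicate 1, against 0.353 and 1.64 FPKM in the other Day 60 mice. The sum was 5735 FPKM in Day 20 replicate 2, 5107 in Day 0 replicate 3, 4418 in Day 15 replicate 3 and 4012 in Day 45 replicate 1. Lower levels of these markers, up to 1235 FPKM, were present in many mice from Day 0 to Day 15. The skeletal muscle markers summed to 1254 FPKM in Day 0 replicate 1 and 86.9 FPKM in Day 10 replicate 1, against a median of 1.51 FPKM. The 2 libraries with more than 10 FPKM of Acta1 and the 5 libraries with more than 100 FPKM of Cpa1 were left out as additional alternatives, chosen after the marker levels were seen. Counts without them stand beside the counts below. Leaving out both sets kept 1 mouse at Day 0, so counts that involve Day 0 are not given for that fit. Libraries with lower levels of pancreatic markers stayed in.

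Tests compared means of log2(FPKM + 1) by limma over the 11149 genes whose average reached 1 FPKM at 1 or more ages, and a gene was called at an adjusted p under 0.05. Fold changes are on that scale, which understates changes of low genes. Fabp7 did not reach the filter, so 9 members were tested. Most genes changed with age, and the members are read against that background. In all, 9 of 9 members differed from Day 60 at 1 or more ages, as did 90.7% of all tested genes. The number called was 8 of 9 at GD17.5 (75.1% of all tested genes), and 6 on the day of birth (63.9%). For Day 1 it was 7 (65%), for Day 3 it was 6 (66.0%) and for Day 5 it was 4 (65.4%). For Day 10 it was 5 (46.0%), for Days 15 and 20 it was 4 (27.4% and 15.9%), and for Day 25 it was 1 (7.42%), Lpl. No member was called by limma at Day 30 (3.56%) or Day 45 (0.233%), where 3 and 1 members had an unadjusted p under 0.05, and Dunnett comparisons also called 0 at both ages. At the younger ages the members' share was near the background. Without the libraries above those marker limits the count at GD17.5 was 8. From Day 1 to Day 25 the counts were 7, 5, 4, 5, 4, 4 and 1. Over the 11149 genes the calls at these ages were then 7999, 6761, 6849, 6809, 3853, 2197, 1156 and 547. Day 0 kept 1 mouse in that fit, so its counts are not given.

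Fabp1, the main cytosolic fatty acid carrier of hepatocytes, was the most abundant member at most ages. Its levels were 178, 178 and 171 FPKM in the GD17.5 mice, 569.9, 415 and 399.9 at Day 0, and 1857, 2178 and 1408 at Day 1. They were 1571, 1274 and 1426 FPKM at Day 3, 1980.5, 1643 and 1638 at Day 5, 1396, 882 and 1154 at Day 10, 939, 679 and 586 at Day 15, and 597, 737 and 634 at Day 20. From weaning on they were 1831, 1993 and 1532 FPKM at Day 25, 4368, 2623 and 2164 at Day 30, 1563, 1388 and 2234 at Day 45, and 2061, 2312 and 1751 at Day 60. Fabp1 thus had a trough in the last part of suckling: no mouse of Day 15 or Day 20 reached the lowest mouse of any later age. It rose 2.59-fold from GD17.5 to Day 0 (log2 difference 1.37, SE 0.22, adjusted p = 1.24e-05) and a further 3.91-fold to Day 1 (log2 difference 1.97, adjusted p = 1.40e-07), with no overlap between mice of these 3 ages. Day 20 was 3.10-fold below Day 60 (log2 difference -1.63, adjusted p = 2.53e-06), and Day 25 was 2.71-fold above Day 20 (log2 difference 1.44, adjusted p = 4.12e-05). The highest mean, 3052 FPKM at Day 30, owed much to 1 mouse at 4368 FPKM, and Day 30 did not pass the test against Day 60 (adjusted p = 0.21).

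Fabp5, a binding protein best known from skin, macrophages and endothelium, was high up to Day 10 and low from Day 20 on. It was at 355, 439.8 and 376 FPKM at GD17.5, 591, 563 and 536 at Day 0, 305, 382 and 274 at Day 1, 593, 765 and 661 at Day 3, and 689, 952 and 607 at Day 5. The values were 412, 480.4 and 456 FPKM at Day 10, 231, 71.1 and 70.5 at Day 15, 18.6, 8.60 and 11.9 at Day 20, and 24.7, 18.1 and 26.3 at Day 25. After that they were 24.5, 24.6 and 16.2 FPKM at Day 30, 4.24, 9.07 and 8.87 at Day 45, and 9.64, 10.5 and 25.7 at Day 60. Every mouse up to Day 10 was above every mouse from Day 15 on, and every mouse of Day 15 was above every mouse from Day 20 on. Day 5 was 49.6-fold above Day 60 (log2 difference 5.63, SE 0.35, adjusted p = 3.34e-14), Day 15 was 7.16-fold above it (log2 difference 2.84, adjusted p = 2.37e-07), and Day 20 was not called (log2 difference -0.14, adjusted p = 0.872; 0.10 without Day 20 replicate 2 and 0.28 without Day 60 replicate 3). The drop to this low level thus lay before weaning, between Day 10 and Day 20. The annotation holds 1 pseudogene named after Fabp5, and reads shared with such a copy could not be separated here.

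The makeup of the binding protein pool differed between ages. Fabp5 made up 67.4% ± 2.16 (SD, n = 3) of the summed FPKM of the 5 binding protein members at GD17.5 and 54.6% ± 4 at Day 0. Fabp1 made up 84.0% ± 1.26 on Day 1 and 69.1% ± 5.65 on Day 5, and on Days 20 and 60 its share was 95.9% ± 0.814 and 98.5% ± 0.705. Fabp1 exceeded Fabp5 in every mouse from Day 1 on and in none before.

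Fabp4, the binding protein of adipocytes and also of macrophages and capillary endothelium, was between 6.70 and 27.6 FPKM in every mouse up to Day 10 and between 2.23 and 8.07 FPKM from Day 15 on. Its highest mean was 21.7 FPKM at Day 5, 5.39-fold above Day 60 (log2 difference 2.43, SE 0.34, adjusted p = 3.69e-07). Fabp4 was called higher than Day 60 at 6 ages, from GD17.5 to Day 10, and Day 15 was called as well without Day 15 replicate 3 (1.01, adjusted p = 0.0495) or with the GC and length trend removed (0.95, adjusted p = 0.0134). Of the 7 adipocyte markers, 5 were below 1 FPKM in every mouse, and the most abundant was Cidec, which reached 15.4 FPKM in a Day 1 mouse and is also made by fat-storing hepatocytes. Fabp4 and Fabp5 had a Pearson r of 0.94 over the 12 age means, and they lie near each other on chromosome 3.

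Fabp2, the intestinal binding protein, was low in liver but had its own course. It was at 1.53, 3.17 and 1.56 FPKM at GD17.5, 2.38, 0.713 and 0.649 at Day 0, 7.66, 7.00 and 5.11 at Day 1, and 25.3, 9.77 and 23.7 at Day 10. At the other ages it lay between 6.17 and 22.3 FPKM. Each mouse of GD17.5 and Day 0 was below each mouse of all later ages. Fabp2 rose 3.54-fold from Day 0 to Day 1 (log2 difference 1.82, SE 0.33, adjusted p = 1.65e-04), and from Day 1 on no age was called against Day 60 by limma in all mice. Day 1 was called lower than Day 60 under upper quartile scaling (-1.10, adjusted p = 0.0083) and with the GC and length trend removed (adjusted p = 0.00321). Day 10 was called higher without Day 10 replicate 2 (1.09, adjusted p = 0.0101), and with that trend removed Days 10 and 15 were called higher (0.68 and 0.75). An antisense transcript model spans Fabp2, and reads from the opposite strand could not be told apart. Fabp7, the brain binding protein, stayed between 0.0622 and 0.75 FPKM in all 36 mice, too low for the tests.

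**Figure D1:**
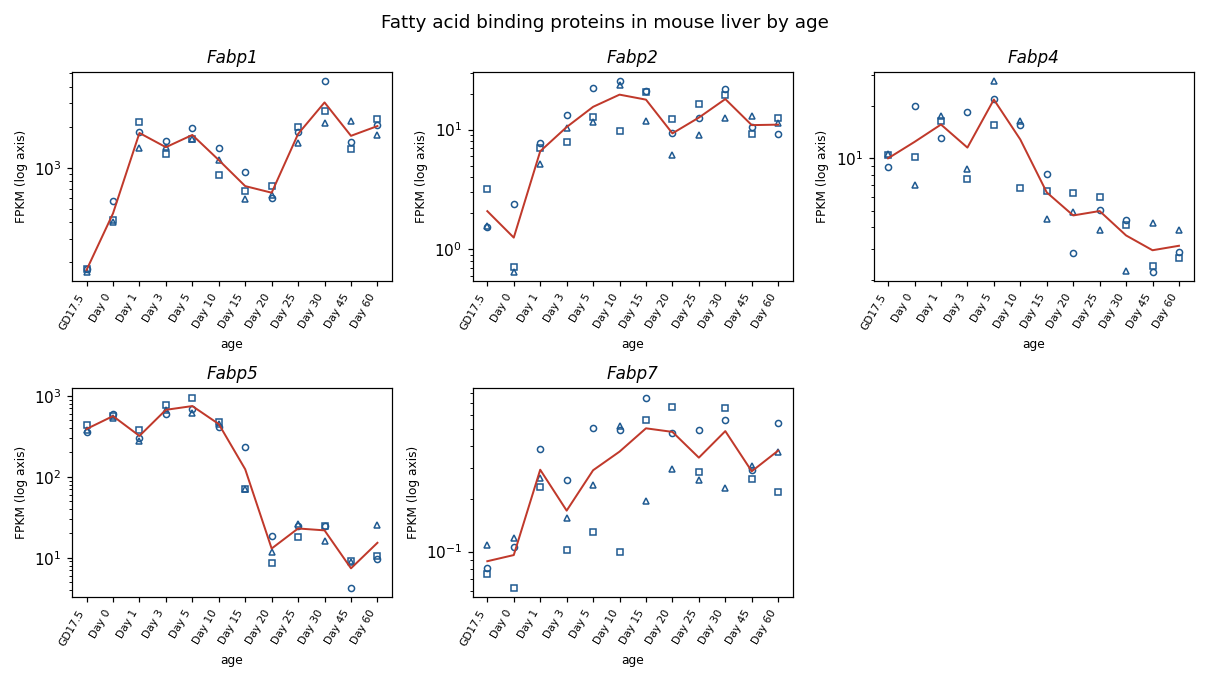
FPKM (log axis) of the 5 fatty acid binding protein members by age (spaced evenly), with a symbol for each of the 3 mice per age, a line through the age means and a separate range of the axis for each gene. Fabp1 has a trough at Days 15 and 20, where all mice lie between 586 and 939 FPKM, while Fabp5 goes from a mean of 449 FPKM at Day 10 to 13 FPKM at Day 20.

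Slc27a2 (FATP2), a fatty acid transporter with very long-chain acyl-CoA synthetase activity, was the most abundant of the 3 membrane proteins. Its levels were 27.7, 28.4 and 31 FPKM at GD17.5, 84.0, 57.7 and 49.7 at Day 0, and 382, 379 and 350.0 at Day 1. They were 252, 296 and 326 FPKM at Day 20, 129.5, 113 and 182 at Day 25, and 219, 205 and 141 at Day 60. At the other ages they lay between 123 and 300.4 FPKM. Each Day 1 mouse was above every mouse of all other ages. Slc27a2 rose 2.11-fold from GD17.5 to Day 0 (log2 difference 1.08, SE 0.21, adjusted p = 1.33e-04) and 5.87-fold from Day 0 to Day 1 (log2 difference 2.55, adjusted p = 4.07e-10). It fell 2.08-fold from Day 20 to Day 25 (log2 difference -1.06, adjusted p = 0.00118), again with no overlap.

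Slc27a4 (FATP4), a transporter of the same family, had the smallest range of age means among the tested members (2.13-fold). The GD17.5 mice, with a mean of 6.79 FPKM, were below all others, and the later age means ran from 10.0 to 14.5 FPKM. The increase from GD17.5 to Day 0 (log2 difference 0.67, adjusted p = 0.00669) leaned on the library with the most pancreatic RNA at that age, at 16.7 FPKM against 8.72 and 10.1 FPKM. It was 0.42 and not called without that mouse (adjusted p = 0.0898) or without all libraries of pancreatic RNA (adjusted p = 0.108).

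Cd36, a scavenger receptor that also takes up fatty acids, was between 0.758 and 9.38 FPKM. It was at 6.00, 2.73 and 1.64 FPKM at Day 0, 9.38, 6.78 and 5.82 at Day 1, and 3.44, 3.23 and 3.04 at Day 60. The mice of Day 1 overlapped with those of GD17.5, Day 0, Day 3 and Day 5, whereas each mouse of Day 1 and Day 3 was above every mouse from Day 10 on, which reached at most 4.05 FPKM. Day 1 was 1.94-fold above Day 60 (log2 difference 0.95, SE 0.35, adjusted p = 0.0186 by limma). That call was lost without Day 1 replicate 1 (0.78, adjusted p = 0.0868), under upper quartile scaling (0.55, adjusted p = 0.175) and with Dunnett comparisons (adjusted p = 0.189). Day 1 was 2.00-fold above Day 0 (log2 difference 1.00, SE 0.35, adjusted p = 0.0309). This call was lost without Day 0 replicate 2 (log2 difference 0.93) or replicate 3 (0.68) and without Day 1 replicate 1 (0.83) or replicate 2 (1.04, adjusted p = 0.0556). The difference was 0.68 without the libraries holding pancreatic RNA (adjusted p = 0.198) and 1.38 without those of muscle RNA (adjusted p = 0.00411). It was 1.14 without both sets, which kept 1 mouse at Day 0. The call was also lost under upper quartile scaling (0.85, adjusted p = 0.0683) and with the GC and length trend removed (0.32, adjusted p = 0.137).

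Lpl, lipoprotein lipase, was present in liver throughout suckling. Its levels were 17, 13 and 9.49 FPKM at GD17.5, 11.7, 17 and 15.3 at Day 0, 25.6, 16.1 and 20.1 at Day 1, 23.3, 11.2 and 12.1 at Day 3, and 13.4, 9.61 and 16.4 at Day 5. They were 38.5, 17.4 and 23.7 FPKM at Day 10, 46.1, 45.6 and 20.4 at Day 15, 26.1, 33.1 and 20.4 at Day 20, and 11.5, 6.25 and 5.62 at Day 25. Later values were 1.66, 6.49 and 2.94 FPKM at Day 30, 1.25, 1.00 and 1.05 at Day 45, and 1.03, 1.23 and 1.69 at Day 60. The highest mean, 37.4 FPKM at Day 15, was 28.4 times the Day 60 mean of 1.32 FPKM, and the ages from GD17.5 to Day 25 were each called higher than Day 60. Every Day 20 mouse was above every Day 25 mouse, and Lpl fell 3.20-fold between them (log2 difference -1.68, SE 0.35, adjusted p = 0.0017). The muscle library of Day 10 had the highest Lpl of its age, whereas that of Day 0 had the lowest of its age. The part of muscle RNA in the Lpl values was not tested.

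Lipc, hepatic lipase, which is made by hepatocytes and acts on lipoprotein remnants and HDL, varied less. It was at 16.1, 19.2 and 20.9 FPKM at GD17.5, 53.4, 33.8 and 36.2 at Day 0, 61.9, 76.6 and 72.3 at Day 1, and 98.7, 93.6 and 88.0 at Day 10. At Day 60 it was at 51.6, 55.7 and 44.1 FPKM, and at the remaining ages between 49.8 and 106 FPKM. Mice of GD17.5, Day 0 and Day 1 did not overlap, and Lipc rose 2.10-fold to Day 0 (log2 difference 1.07, SE 0.16, adjusted p = 2.89e-06) and 1.72-fold from there to Day 1 (log2 difference 0.78, adjusted p = 4.85e-04). Slc27a2 and Lipc had a Pearson r of 0.91 over the 12 age means. The ratio of Lipc to Lpl was 1.54 ± 0.632 (SD, n = 3) at GD17.5. On Days 15 and 60 it was 2.59 ± 1.62 and 40.5 ± 12.7.

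**Figure D2:**
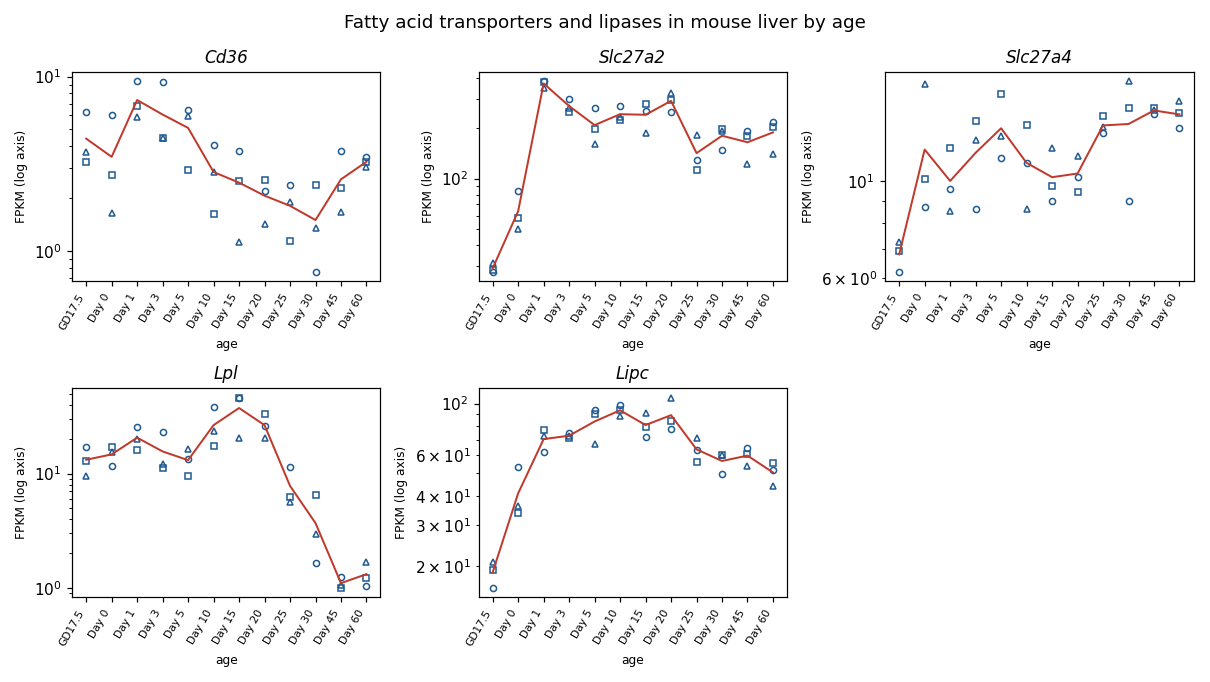
FPKM (log axis) of the 3 membrane proteins and 2 lipases by age (spaced evenly), with a symbol for each of the 3 mice per age, a line through the age means and a separate range of the axis for each gene. The Lpl mean is 37.4 FPKM at Day 15 and 1.10 FPKM at Day 45, while Slc27a2 is highest at Day 1 with a mean of 371 FPKM.

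When the ages were ordered by their mean, the mice of neighbouring ages overlapped in most steps. Of 11 steps, 4 had no overlap for Fabp5, 3 for Slc27a2 and 2 for Fabp1. The number was 1 each for Fabp2, Fabp4, Fabp7, Slc27a4 and Lipc, and 0 for Cd36 and Lpl. Such steps were not counted over all genes, so these numbers do not set the members apart.

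Birth, first suckling and weaning were then compared across the members. From GD17.5 to Day 0, 4 of 9 members were called (54.6% of all tested genes). All 4 rose (13.1%): Fabp1, Slc27a2, Slc27a4 and Lipc. Cell type markers moved at the same step. Of 7 hepatocyte markers 6 were higher, with a median log2 difference of 2.32 and a mean sum of 11975 FPKM at GD17.5 against 72839 FPKM at Day 0, whereas 6 of 6 erythroid markers (median -1.32) and 4 of 4 proliferation markers (median -1.59) were lower. Of 6 pancreatic acinar markers 5 were higher (median 6.33), their sum being 833, 506 and 5107 FPKM in the Day 0 mice against 2.2 FPKM or less at GD17.5. Of 8 macrophage markers 2 were higher and 3 lower, and 2 of 6 neutrophil markers were higher. The rises of the 4 members, from 0.67 to 1.37, were smaller than that hepatocyte median, and the part of these markers was not tested. By limma none fell (41.4%), and 0 were lower at an unadjusted p under 0.05; Dunnett comparisons were made against Day 60 alone. Without the muscle libraries 5 were called, Fabp2 being lower (log2 difference -0.83, adjusted p = 0.0457), with 5644 of the 11149 genes against 6083 in all mice. Leaving out the libraries of muscle or pancreatic RNA kept 1 mouse at Day 0, so no count is given for that fit. The Slc27a4 difference was 0.51 in it. From Day 0 to Day 1, 5 of 9 were called (31.6%). All 5 rose (23.7%): Fabp1, Fabp2, Cd36, Slc27a2 and Lipc. None fell by limma (7.88%), with 1 member, Fabp5, lower at an unadjusted p under 0.05 (log2 difference -0.82). Fabp5 was called lower under upper quartile scaling (-0.98, adjusted p = 0.0374). At this step 1 of 7 hepatocyte markers was lower, 5 of 6 erythroid and 4 of 6 neutrophil markers (median -0.90) were lower and 5 of 8 macrophage markers higher. Of 8 tested genes of the circadian clock 4 were higher and 1 lower (median 0.72), and livers of both ages were taken by the time of birth. The part of these lists was not tested. For the same reason no count without the libraries of muscle or pancreatic RNA is given at this step. From Day 20 to Day 25, 3 of 9 were called (7.19%). Of these, 1 rose (3.94%), Fabp1, and 2 fell (3.26%), Slc27a2 and Lpl, and the count was 3 without those libraries, with 532 of the 11149 genes against 802. Lipc was lower by less than the threshold (log2 difference -0.48, adjusted p = 0.0645), and it was called without Day 20 replicate 1 (-0.57, adjusted p = 0.0482) or Day 0 replicate 1 (adjusted p = 0.0329). It was also called without the muscle libraries (adjusted p = 0.0364), with the filter of 5 FPKM (adjusted p = 0.0493) and with the GC and length trend removed (adjusted p = 0.0332).

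The suckling ages (Days 1 to 20) were compared with the ages after weaning (Days 25 to 60), and 8 of 9 members differed (79.7%). The 6 higher in suckling (68.1%) were Fabp5 (log2 difference 3.76), Lpl (2.61), Fabp4 (1.33), Slc27a2 (0.68), Cd36 (0.60) and Lipc (0.49). The 2 lower (11.7%) were Fabp1 (-0.83) and Slc27a4 (-0.31). The median log2 difference was 0.60 over the 9 members and 0.39 over the 11149 genes, and upper quartile scaling brought the latter to 0.13. Under that scaling Lipc (0.09) and Cd36 (0.30) were no longer called, and Fabp2 (-0.46) was called lower. Against the ages before suckling (GD17.5 and Day 0), 7 of 9 were called (67.8%). The 6 higher in suckling (27%) were Slc27a2 (2.61), Fabp2 (2.36), Fabp1 (2.02), Lipc (1.52), Lpl (0.60) and Slc27a4 (0.28). The 1 lower (40.7%) was Fabp5 (-1.12), and this did not hold through all of suckling. Its means were 390.2 and 563 FPKM at GD17.5 and Day 0. On Days 1, 3, 5, 10, 15 and 20 they were 320.4, 673, 749, 449, 124 and 13 FPKM. Without the libraries of muscle or pancreatic RNA 8 members were called against after weaning, with 8668 of the 11149 genes against 8886. Against the ages before suckling that fit had 1 mouse at Day 0, and Lpl was 0.48 and Slc27a4 0.35. Without the muscle libraries alone, Lpl (0.48, adjusted p = 0.0521 by limma) and Slc27a4 (0.19, adjusted p = 0.19) lost their call against the ages before suckling. The Slc27a4 call there was kept in 27 of the 36 fits that each left out 1 mouse. It was lost without GD17.5 replicate 1 or 2, Day 0 replicate 1 or 2, replicate 2 of Day 1, 3, 5 or 10, or Day 15 replicate 3, with log2 differences from 0.19 to 0.29. Between neighbouring steps the median of all tested genes shifted by -0.29 from GD17.5 to Day 0 and by 0.19 from Day 0 to Day 1, against -0.08 and 0.08 under upper quartile scaling.

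Other cell types of liver also changed with age, and in whole tissue fewer cells of a type and less RNA per cell cannot be told apart. In suckling against after weaning, 7 of 8 tested macrophage markers, 6 of 7 endothelial and 5 of 5 stellate markers were higher. The same held for 6 of 6 megakaryocyte, 6 of 6 erythroid and 6 of 6 neutrophil markers. The members Fabp4, Fabp5, Cd36, Lpl, Slc27a2 and Lipc were higher as well. So were 4 of 4 proliferation markers, 5 of 6 pancreatic acinar markers (median 2.99) and 4 of 7 hepatocyte markers, with 1 hepatocyte marker lower. Of all tested genes 68.1% were higher. The median log2 difference was 1.13 for the macrophage and 1.01 for the endothelial list, against 0.39 over all tested genes. Against the ages before suckling, Fabp5 was lower as an average over suckling but not at each age. In that comparison 6 of 6 erythroid, 6 of 6 megakaryocyte, 6 of 6 neutrophil and 4 of 4 proliferation markers (median -1.67) were lower. So were 3 of 6 tested muscle markers, whereas 7 of 7 hepatocyte, 6 of 7 endothelial, 4 of 8 macrophage and 2 of 5 stellate markers were higher. For the neutrophil and granulocyte precursor markers, with Ngp the most abundant on average over all mice, the mean sum was 1007 FPKM on Day 5, and on Days 15, 20 and 60 it was 22.7, 7.19 and 0.603 FPKM. The macrophage sum, with Cd5l the most abundant in the same sense, averaged 222, 117 and 77 FPKM on Days 5, 20 and 60, and the stellate sum averaged 83.2, 49.2 and 19.1 FPKM on the same days. The part of these cell types in the course of the 6 members higher in suckling than after weaning was not tested. Of 7 enterocyte markers 4 were below 1 FPKM in every mouse, and the most abundant was Apoa4, which liver also makes. Another, the retinol binding protein gene Rbp2, reached 247 FPKM in a Day 0 mouse. It was higher at Day 0 than at GD17.5 (log2 difference 2.59), lower at Day 1 than at Day 0 (-2.46) and higher in suckling than after weaning (2.53). Of 2 brown fat and 4 heart markers, 1 and 3 were below 1 FPKM in every mouse. The stellate sum, like Lpl, was lower at Day 25 (26 FPKM) than at Day 20, with 1 of its 5 genes called. The Clock list also moved at that step, 5 of 8 tested genes being lower at Day 25 (median log2 difference -1.11), and its part was not tested. In suckling 5 of its 8 genes were higher and 1 lower against either set of ages. From Day 20 to Day 25, 2 of 7 hepatocyte markers were lower and 2 of 4 proliferation markers higher. Livers from Day 3 on were taken at a fixed time in the morning, and those of Day 0 and Day 1 by the time of birth.

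The genes with the most similar course over the 12 age means of log2(FPKM + 1) were, for Lpl, Col3a1 (r = 0.9566), P2ry14 (0.9383) and Adamts10 (0.9288). For Fabp1 they were Ephx1 (0.9528), Tmbim4 (0.9491) and Tm2d2 (0.9479), and for Fabp2 Lyplal1 (0.9633), Inhbc (0.9375) and Sult1b1 (0.9373). For Fabp4 they were Tmem88 (0.9839), Gcom1 (0.9798) and Dfna5 (0.9775), and for Fabp5 Rbbp7 (0.9783), Prg2 (0.9776) and Maged2 (0.9773). The list for Slc27a2 was Ftcd (0.9823), Camk2n1 (0.9674) and Acad11 (0.9556), and for Slc27a4 Cyp8b1 (0.9394), Serping1 (0.9277) and Ces3a (0.9107). For Lipc they were Tmem53 (0.9830), Sirt3 (0.9824) and Agxt (0.9819), and for Cd36 Ywhag (0.9592), Mpeg1 (0.9585) and 1600012H06Rik (0.9576). All ages share their libraries in these values, which are a description.

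The partners of lipoprotein lipase were compared between suckling and after weaning, where the median log2 difference of all tested genes was 0.39. Apoc3, which slows lipolysis, was lower in suckling, with means of 2.99 FPKM at GD17.5 and, on Days 5, 20 and 60, of 116, 1583 and 2371 FPKM (log2 difference -3.38, adjusted p = 2.36e-18). Apoc2, the activator of the enzyme, was higher in suckling (0.89), as were Gpihbp1, its endothelial anchor (0.63), and the inhibitor Angptl4 (0.60). Lmf1, needed for its folding, was lower (-0.65), as was Gm6484 (-0.63), for which RefSeq gives Angptl8 as another name, while Apoa5 was not called (-0.13). The Apoc2 difference did not hold through all of suckling, since its mean was 1185 FPKM on Day 1 and 218 FPKM on Day 20, against 324 FPKM on Day 25.

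The other lists were compared in the same way, and genes in them under a log2 difference of 1 are named after their values were seen. Of the other transporters of the Slc27 family (median 0.41), 2 of 3 tested were higher in suckling, Slc27a1 and Slc27a3. Slc27a5, the bile acid CoA ligase, was lower, with means of 94, 484 and 429 FPKM on Days 1, 20 and 60 (log2 difference -1.17). None of the 5 other binding protein genes passed the filter. Of the acyl-CoA synthetases and the acyl-CoA binding protein gene Dbi (median -0.24), 3 of 5 were lower, Acsl3, Acsl5 and Dbi, and by limma 0 were higher, nor was any at an unadjusted p under 0.05. Of the other lipases (median 0.31), Pla1a, a phospholipase (1.02), Lipa and Pnpla2 were higher and Mgll lower, of 6. Among lipoprotein receptors, Scarb1, the HDL receptor (1.13), and Vldlr were higher, and Lsr (-1.40) and Sdc1 lower. Of the 9 regulators (median 0.03), Ppara, Pparg and Nr1i2 were higher and Ppard and Nr1h3 lower. Of the 8 clock genes (median 0.64), Dbp (1.76), Tef (1.52), Per1 (1.44), Per2 and Cry1 were higher and Nr1d1 lower.

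Fabp1, Slc27a2 and Lipc rose both at birth and at first suckling, and the 250 bases before their annotated starts are shown for that reason. Promoter entries in RefSeq (GRCm38.p6) were found for 7 members, with 8 starts, Lipc having 2. Capitals mark AGGTCA, a nuclear receptor half-site, and TATAAA, each searched on both strands. AGGTCA was in 5 of the 8 member windows and in 14% of all 32851 windows, and TATAAA in 1 and in 12.4%. A match describes the letters and not a bound site. The windows are chr6:71199629-71199878 (+) for Fabp1, chr2:126552774-126553023 (+) for Slc27a2, and chr9:70952222-70952471 (-) and chr9:70934809-70935058 (-) for Lipc.
Fabp1: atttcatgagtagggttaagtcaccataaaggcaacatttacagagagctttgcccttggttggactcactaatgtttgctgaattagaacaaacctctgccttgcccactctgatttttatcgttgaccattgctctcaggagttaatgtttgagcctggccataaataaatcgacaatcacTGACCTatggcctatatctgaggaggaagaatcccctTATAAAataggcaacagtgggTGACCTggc
Slc27a2: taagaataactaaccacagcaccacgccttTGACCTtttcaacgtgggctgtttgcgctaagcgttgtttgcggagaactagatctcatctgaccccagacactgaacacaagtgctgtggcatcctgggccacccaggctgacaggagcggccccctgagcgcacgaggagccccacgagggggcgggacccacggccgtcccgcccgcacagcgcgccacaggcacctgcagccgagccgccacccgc
Lipc, upstream start: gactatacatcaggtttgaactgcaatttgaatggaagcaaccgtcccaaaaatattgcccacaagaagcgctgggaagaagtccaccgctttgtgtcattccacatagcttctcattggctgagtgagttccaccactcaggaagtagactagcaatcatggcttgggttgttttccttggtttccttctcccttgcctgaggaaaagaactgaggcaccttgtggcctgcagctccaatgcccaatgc
Lipc, downstream start: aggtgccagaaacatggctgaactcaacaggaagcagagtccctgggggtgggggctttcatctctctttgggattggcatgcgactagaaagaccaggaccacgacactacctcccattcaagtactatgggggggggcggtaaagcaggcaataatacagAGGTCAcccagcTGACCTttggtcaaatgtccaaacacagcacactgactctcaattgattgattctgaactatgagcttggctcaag

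On mm9 by GENCODE M1, the members lie at chr6:71149821-71155017 (+) for Fabp1, chr3:122597990-122602424 (+) for Fabp2, chr3:10204347-10208576 (-) for Fabp4, chr3:10012548-10016607 (+) for Fabp5 and chr10:57504687-57508256 (+) for Fabp7. The membrane proteins lie at chr5:17287508-17394777 (-) for Cd36, chr2:126378143-126413979 (+) for Slc27a2 and chr2:29658154-29673042 (+) for Slc27a4, and the lipases at chr8:71404390-71431347 (+) for Lpl and chr9:70645936-70800033 (-) for Lipc. Opposite-strand gene models also overlap Slc27a2 and Lipc.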

How the data were processed

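The deposited values are FPKM per gene symbol, made by the authors with TopHat 1.2.0, Cufflinks 1.0.3 and the mm9 genome, as named in the submitters' processing notes. Use of strand in counting is not given in the sources used here. Replicates are separate mice. FPKM summed to between 353712 and 450597 per mouse. No fragment counts were used; the spacing of values under 0.1 FPKM gave an estimate of relative depth from 0.889 to 1.26. Comparisons were fitted with limma 3.58.1 (R 4.3.3) on log2(FPKM + 1), with 1 mean per age, a mean-variance trend, two-sided tests and Benjamini-Hochberg adjustment over all tested genes, and tested on simulated data. The filter was a mean of 1 FPKM in at least 1 age. Named genes were the members, partners of lipoprotein lipase, list genes called with a log2 difference of at least 1 in suckling against after weaning, and the 3 genes of most similar course per member. The members and lists were chosen with earlier results of these data known. Some genes of the lists are not reported here. Alternatives were a pseudocount of 0.1, no filter or 5 FPKM, upper quartile and TPM scaling, a replicate block, no trend, ANOVA with Dunnett comparisons, and each mouse left out. Added after seeing the data were libraries with muscle or pancreatic RNA left out and removal of GC and length trends.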

Additional observations from a re-analysis of the deposited data

How the results depend on the processing

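Of the 17 counts of called members, all but 5 stayed within 1.5 times their value under every alternative run. With Dunnett comparisons 4 members were called at Day 1 against Day 60, in place of 7 (5888 of all genes in place of 7251). With the GC and length trend removed, 7 were called at Day 5, 7 at Day 15 and 1 at Day 30 against Day 60, and 5 from Day 20 to Day 25. Of 10887 genes 6580, 4121, 855 and 1574 were then called, in place of 7288, 3052, 397 and 802 of 11149. Single calls moved more than the counts. Against Day 60, upper quartile scaling ended the calls of Lipc at Day 1 (0.47 to -0.01), Day 3 (0.52 to -0.09) and Day 5 (0.71 to 0.09). It ended that of Slc27a2 at Day 3 (0.55 to -0.08), and Slc27a2 was called lower at Day 5 (0.14 to -0.49). Fabp1 was then called lower at Days 1 and 5, and Slc27a4 at Days 0, 3, 5, 10 and 15. All these calls were also lost or gained with the GC and length trend removed. The cause was not tested.

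When each mouse was left out in turn, the counts ranged from 8 to 9 for any age against Day 60, 4 to 6 for Day 1 against Day 0, 5 to 7 for Day 1 against Day 60 and 6 to 7 for suckling against before suckling. They ranged from 3 to 4 for Day 0 against GD17.5 and for Day 25 against Day 20. Against Day 60 they were 6 to 7 at Day 0, 5 to 6 at Days 3 and 10, 4 to 5 at Day 15 and 3 to 4 at Day 20. The other counts did not move. Calls over all genes are not given for these runs. Only values that were not called changed sign in these runs. Fabp4 ranged from -0.20 to 0.48 (Day 0 against GD17.5), -0.16 to 0.31 (Day 25 against Day 20) and -0.18 to 0.16 (suckling against before suckling). Cd36 ranged from -0.29 to 0.05 (Day 25 against Day 20) and -0.12 to 0.23 (suckling against before suckling). Lpl ranged from -0.03 to 0.36 (Day 0 against GD17.5) and Slc27a4 from -0.36 to 0.07 (Day 1 against Day 0). Against Day 60, Fabp5 ranged from -0.42 to 0.28 at Day 20. Signs against Day 60 also changed for Cd36 at Days 0 and 10, Fabp2 at Days 3, 25 and 45, and Fabp4 at Days 30 and 45. The same held for Slc27a2 at Days 5, 30 and 45 and for Slc27a4 at Days 30 and 45. Of these, Cd36 at Day 0 was 0.27 without Day 0 replicate 3, against -0.04. Slc27a4 at Day 30 was 0.14 without Day 30 replicate 1, against -0.11.

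In suckling against before suckling, Fabp4 was 0.10 under upper quartile scaling, 0.04 under TPM scaling, 0.13 without muscle libraries, 0.01 without muscle or pancreatic libraries and 0.08 with the GC and length trend removed, against -0.03, and Cd36 was -0.08 without pancreatic libraries and -0.07 with that trend removed, against 0.04. Fabp4 was -0.20 from GD17.5 to Day 0 without muscle libraries, and Slc27a4 0.07 from Day 0 to Day 1 without pancreatic libraries. With the GC and length trend removed, Cd36 was 0.42 (adjusted p = 0.0345, against -0.36) and Lpl 0.73 (adjusted p = 0.01, against 0.17) from GD17.5 to Day 0, and from Day 0 to Day 1 Lpl was -0.01 and Fabp5 was called lower (-1.06, adjusted p = 0.0193). The cause was not tested.

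The replicate numbers name different mice. With the number as a replicate block, 8 members were called in suckling against after weaning and 7 at Day 3 against Day 60, in place of 8 and 6. Over the 11149 genes the calls were then 9083 and 7615, in place of 8886 and 7356. Same-numbered mice of different ages had deviations with a correlation over 0.1 in 104 of 198 pairs, and 19 of 36 mice correlated best with their own number. The mean correlation was 0.10 over those 198 pairs, which ranged from -0.68 to 0.83, and -0.05 over 396 pairs with different numbers. What same-numbered mice may share was not tested. Upper quartile scaling moved the share of higher calls among all genes from 85.4% to 63.7% in suckling against after weaning, from 24.1% to 43.5% at birth and from 75.0% to 55.0% at Day 1. With the GC and length trend removed these shares were 51.4%, 40.9% and 49.2%.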
